A study of Mus musculus with 9 samples.

Results

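The Hox genes were followed in hindlimb skeletal muscle of neonatal mice over the first days after birth. They encode homeodomain transcription factors that give cells their position along the head to tail axis and, in the limb, from the trunk outwards to the digits. Members were all genes named Hoxa, Hoxb, Hoxc or Hoxd with a number, antisense transcripts left out, that were read by a probe set carrying that symbol alone. This gave 36 genes of the 22180 measured. Hoxa11 and Hoxd4 had only probe sets that also name another gene. The Hoxa cluster contributed 9 genes, Hoxb 10, Hoxc 9 and Hoxd 8. By paralogue number, 7 members were anterior (1 to 3), 14 central (4 to 8) and 15 posterior (9 to 13).

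The groups compared were hindlimb muscle from mice at postnatal day 2 (P2), day 7 (P7) and day 14 (P14), with 3 biological replicates each and 9 arrays in all. All mice were of a strain given as mixed, and no treatment or engineered allele is named in the labels for any group. The labels do not say whether a replicate was 1 animal or several pooled, so the spread behind each p-value is that of these samples and may in part be technical. Whole muscle was used, so fewer cells of a type and less RNA per cell cannot be told apart.

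Hox genes lie in 4 clusters on different chromosomes, and within a cluster the order of the genes follows the order of the body regions in which the embryo uses them. Neighbouring paralogue groups overlap in the regions that they mark, and the posterior groups also mark segments of the limb. Hox proteins bind DNA with partners of the Pbx and Meis families, while Polycomb and Trithorax complexes keep the clusters silent or active after the embryonic signals that set them have gone. Connective tissue cells and muscle stem cells are known to keep a Hox pattern of their region of origin into adult life.

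Values are log2 intensities. Since probe sets bind with different strength, levels of different genes were not set against each other; a gene was only called above background when its mean in at least 1 age passed 3.43, the 95th percentile of the same measure over 1428 smell and taste receptor genes. By that rule 59.6% of all genes were above background. Single age means were set against 3.43 too, a stricter level for them, since it comes from the brightest of 3 ages. A gene at or under background is one not told apart from these receptor genes, which does not show that it is absent. The arrays had medians of 3.29 to 3.36. P2 replicate 2 stood apart from the other P2 arrays on the second principal component (14.3% of the variance), at -33.2 against 21.5 and 27.8.

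Promoters from the RefSeq tables (assembly GRCm38.p6, the 250 bases before the start of the gene) matched 20 of the 36 Hox members. Their median GC content was 58.6%, against 52.4% over the promoters of 27025 genes, and their median ratio of observed to expected CG dinucleotides was 0.686, against 0.378. Hoxd8 and Hoxd9 are printed because they are neighbours on chromosome 2 that fell on opposite sides of the background: Hoxd8 was above it at every age and Hoxd9 at none. Hoxb4 is printed because it came nearest to the test threshold between P2 and P14. CG dinucleotides are in capitals in these 3 sequences, and all 3 are on the plus strand.
Hoxd8, chr2:74704365-74704614: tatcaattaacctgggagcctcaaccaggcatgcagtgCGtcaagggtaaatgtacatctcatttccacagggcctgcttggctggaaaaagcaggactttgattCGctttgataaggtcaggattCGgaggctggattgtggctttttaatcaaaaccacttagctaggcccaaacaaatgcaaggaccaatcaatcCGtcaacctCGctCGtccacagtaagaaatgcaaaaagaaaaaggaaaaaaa
Hoxd9, chr2:74697513-74697762: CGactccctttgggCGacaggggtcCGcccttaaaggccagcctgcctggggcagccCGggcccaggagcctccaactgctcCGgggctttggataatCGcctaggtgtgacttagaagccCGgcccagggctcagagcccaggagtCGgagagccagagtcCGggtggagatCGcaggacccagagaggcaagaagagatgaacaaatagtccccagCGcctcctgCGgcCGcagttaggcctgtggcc
Hoxb4, chr11:96318017-96318266: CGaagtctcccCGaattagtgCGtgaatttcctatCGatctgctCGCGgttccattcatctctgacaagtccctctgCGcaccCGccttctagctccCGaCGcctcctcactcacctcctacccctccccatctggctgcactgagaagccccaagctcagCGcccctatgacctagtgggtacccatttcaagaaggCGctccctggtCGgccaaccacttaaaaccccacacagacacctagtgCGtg
The windows held 6, 13 and 14 CG dinucleotides. The 10 members with a promoter and above background had a median GC content of 58.6% and a median CG ratio of 0.586. In the 10 with a promoter that were not above background these were 60.2% and 0.723.

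Motifs were searched on both strands. TGATTNAT, the form of a Pbx and Hox composite site, was in 2 of the 20 Hox promoters (10%) and in 3.31% of all promoters of the same length. TTTATNA, a form bound by Cdx and posterior Hox proteins, was in 5 of the 20 (25%) and in 14.7% of all. The direct repeat with a 5-base spacer that retinoic acid receptors bind was in 0 of the 20 and in 0.0111% of all. Hoxa7 had 2 TTTATNA matches, in capitals in its promoter on the minus strand, and is printed because its 3 values at P14 were all higher than those at P2.
Hoxa7, chr6:52218574-52218823: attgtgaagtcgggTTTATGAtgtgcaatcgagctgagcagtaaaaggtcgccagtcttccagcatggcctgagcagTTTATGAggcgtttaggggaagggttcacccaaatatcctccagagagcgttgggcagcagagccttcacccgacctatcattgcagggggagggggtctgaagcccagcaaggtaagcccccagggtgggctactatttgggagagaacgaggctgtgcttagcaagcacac
A match of letters describes the sequence and is not evidence that a factor binds there.

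In hindlimb muscle, 18 of the 36 Hox genes (50%) were above background in at least 1 age, and 15 were above it at all 3 ages. The central paralogues made up most of them: 11 of 14 central genes were above background (78.6%), against 1 of 7 anterior genes and 6 of 15 posterior genes (40%). Among the posterior genes, paralogues 9 to 11 gave 6 of 9 and paralogues 12 and 13 gave 0 of 6. By cluster, 6 of 9 Hoxa genes, 5 of 10 Hoxb genes, 5 of 9 Hoxc genes and 2 of 8 Hoxd genes were above background. These shares are descriptions, because one probe set stands for each gene and the strength of the probe sets was not known. They leave out probe sets that name several genes, of which some that name anterior genes were above background. The shares also depend on the threshold. At the 90th percentile of the receptor genes (2.98), 5 of 7 anterior, 13 of 14 central and 8 of 15 posterior genes passed.

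**Figure D1:**
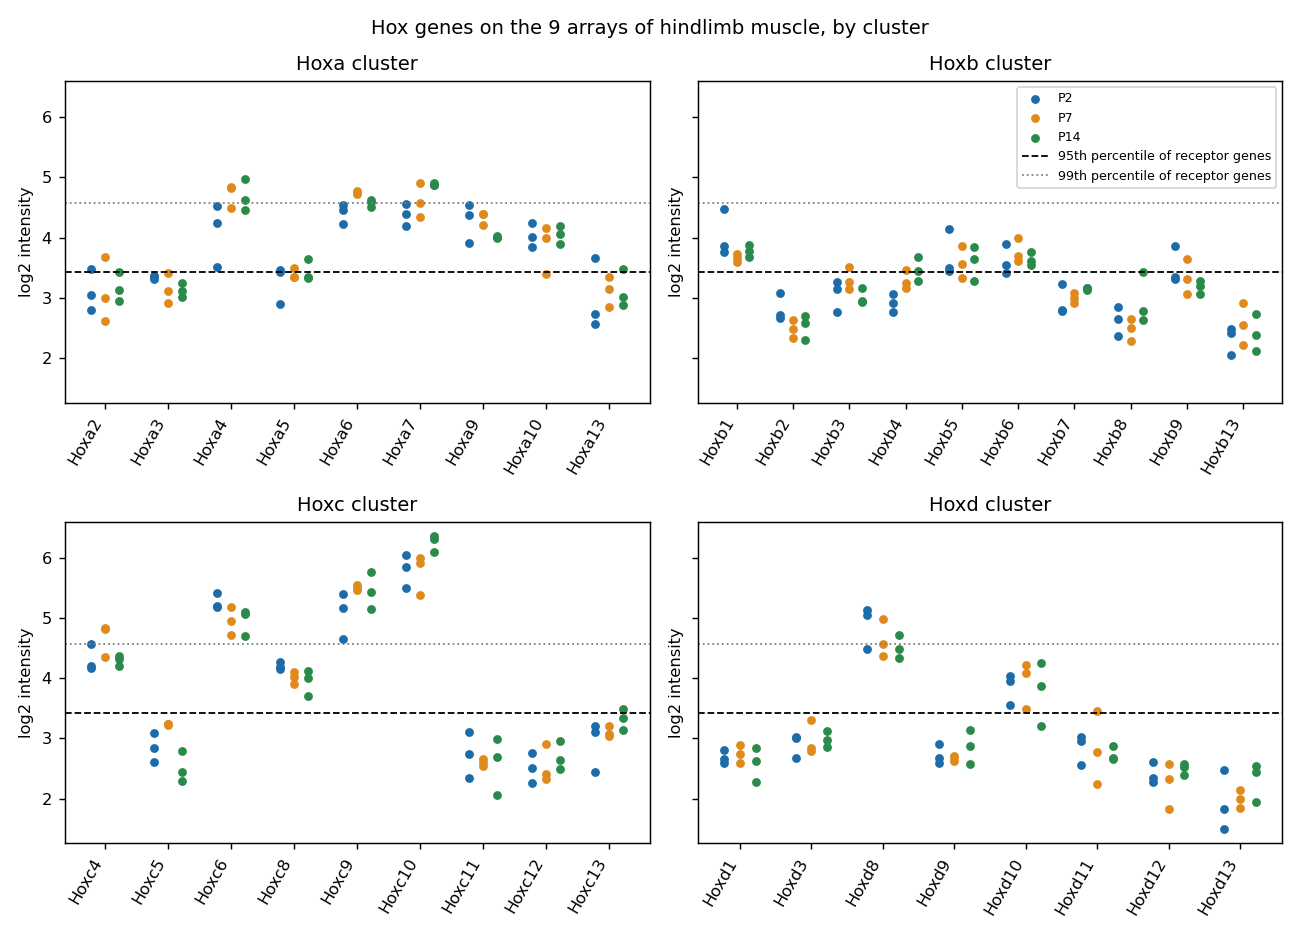
Log2 intensity of each Hox gene (x axis, in paralogue order within each cluster) on the 9 arrays, with 1 point per array coloured by age (P2, P7, P14). The dashed and dotted lines are the 95th (3.43) and 99th (4.58) percentiles of the receptor genes; points of Hoxa4, Hoxa6, Hoxa7, Hoxa9 and Hoxa10 lie mostly above the dashed line and those of Hoxa13, Hoxb13, Hoxc13 and Hoxd13 mostly below it.

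By probe sets of 1 symbol, the only anterior gene above background was Hoxb1, best known for its role in the hindbrain. It had values of 4.48, 3.75 and 3.85 at P2, 3.73, 3.66 and 3.60 at P7, and 3.88, 3.78 and 3.67 at P14. All 9 of its arrays were above background, and its 3 P7 values lay under its 3 P2 values. By the same kind of probe set, Hoxa2, Hoxa3, Hoxb2, Hoxb3, Hoxd1 and Hoxd3 had no age mean above background. Probe sets of several symbols were above it for Hoxa3 with 5730446D14Rik (4.55), Hoxb3 with Hoxb2 (3.74) and Hoxd4 with Hoxd3 (3.79). Which of the genes gave those signals was not tested. Hoxa3 and Hoxa2 are genes of the head and neck in the embryo.

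The central genes above background were Hoxa4, Hoxa5, Hoxa6, Hoxa7, Hoxb4, Hoxb5, Hoxb6, Hoxc4, Hoxc6, Hoxc8 and Hoxd8, members known from the neck and trunk. Of these, Hoxa5 and Hoxb4 passed background at P14 alone, by means of 3.44 and 3.47, so their place rests on the choice of threshold. Hoxc6 had values of 5.19, 5.41 and 5.20 at P2, 4.95, 4.71 and 5.18 at P7, and 5.10, 4.70 and 5.07 at P14. Both older ages lay under P2 without overlap in Hoxc6, and the same held for Hoxc8. Hoxd8 read 4.48, 5.13 and 5.04 at P2, 4.98, 4.36 and 4.56 at P7, and 4.33, 4.71 and 4.48 at P14, with overlap between all ages. The central genes not above background were Hoxb7, Hoxb8 and Hoxc5.

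The posterior genes above background were Hoxa9, Hoxa10, Hoxb9, Hoxc9, Hoxc10 and Hoxd10; Hoxb9 passed at P2 alone, with a mean of 3.50. Paralogues of group 10 are known for the lumbar region and for the upper leg, and all 3 measured members of that group were above background at every age. Hoxa10 ranged from 3.39 to 4.24 over the 9 arrays and Hoxd10 from 3.20 to 4.26. Hoxc11 and Hoxd11, of the group known for the lower leg, ranged from 2.06 to 3.11 and from 2.24 to 3.46, with no age mean above background. Hoxa13 and Hoxd13, which pattern the foot and digits, ranged from 2.56 to 3.66 and up to 2.53. Hoxb13, Hoxc12, Hoxc13 and Hoxd12 also had no age mean above background.

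A stricter level, the 99th percentile of the receptor genes (4.58), was passed by 8 Hox genes (22.2%), against 34.8% of all genes. They were Hoxa4, Hoxa6, Hoxa7, Hoxc4, Hoxc6, Hoxc9, Hoxc10 and Hoxd8, with 6 central and 2 posterior members and none from Hoxb. Just inside the 95th percentile were Hoxa5 and Hoxb4, and just outside it was Hoxa3, with a highest age mean of 3.34.

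No Hox gene passed the test in any comparison of ages. With limma and Benjamini-Hochberg adjustment over all 22180 genes, 0 of 36 were called between P2 and P7, where 0.329% of all genes were called. Between P7 and P14 the counts were 0 of 36 and 2.43%, and between P2 and P14 they were 0 of 36 and 11.0%. The moderated F-test over the 3 ages called 0 of 36 Hox genes and 8.24% of all genes. The contrast of the later interval with the earlier one called 0 of 36 and 0.194%. For P2 to P7, P7 to P14 and the contrast of intervals, the share of all genes comes to under 1 gene in 36, so a count of 0 there is near the background. Without P2 replicate 2, the array that stood apart, limma called 0 Hox genes from P2 to P7, 1 from P7 to P14 (Hoxc5, adjusted p = 0.0459) and 1 from P2 to P14 (Hoxb4, 0.0444). The call of Hoxc5 is not particular to that array. It was also made without P2 replicate 1 (0.0391) or P2 replicate 3 (0.0399), and P2 arrays enter this comparison only through the shared spread.

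At an unadjusted p under 0.05, 1 Hox gene (2.78%) passed between P2 and P7, 2 (5.56%) between P7 and P14, and 4 (11.1%) between P2 and P14. All genes gave 12.8%, 14.6% and 24.3%. Among genes above background, the shares in the same order were 5.56%, 5.56% and 22.2% of the 18 Hox genes and 15.9%, 20.6% and 34.2% of all. The F-test gave 4 Hox genes where all genes gave 22.0%, and the contrast of intervals gave 2 where all genes gave 8.12%. The smallest limma adjusted p of a Hox gene was 0.299 between P2 and P7 (Hoxa4), 0.0523 between P7 and P14 (Hoxc5), and 0.0557 between P2 and P14 (Hoxb4).

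The precision sets a limit on how far these genes can have moved. In each of the 3 comparisons, the 95% interval of the log2 change lay within a 2-fold change either way for 35 of the 36 Hox genes. The exceptions were Hoxa4, whose intervals reached 1.14 from P2 to P7 and 1.11 from P2 to P14, and Hoxc5, whose interval reached -1.12 from P7 to P14. Intervals within 1.5-fold were fewer, with 14, 18 and 12 genes. For a probe set near background, the log2 change understates a change in RNA, so these limits hold for the measured signal.

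**Figure D2:**
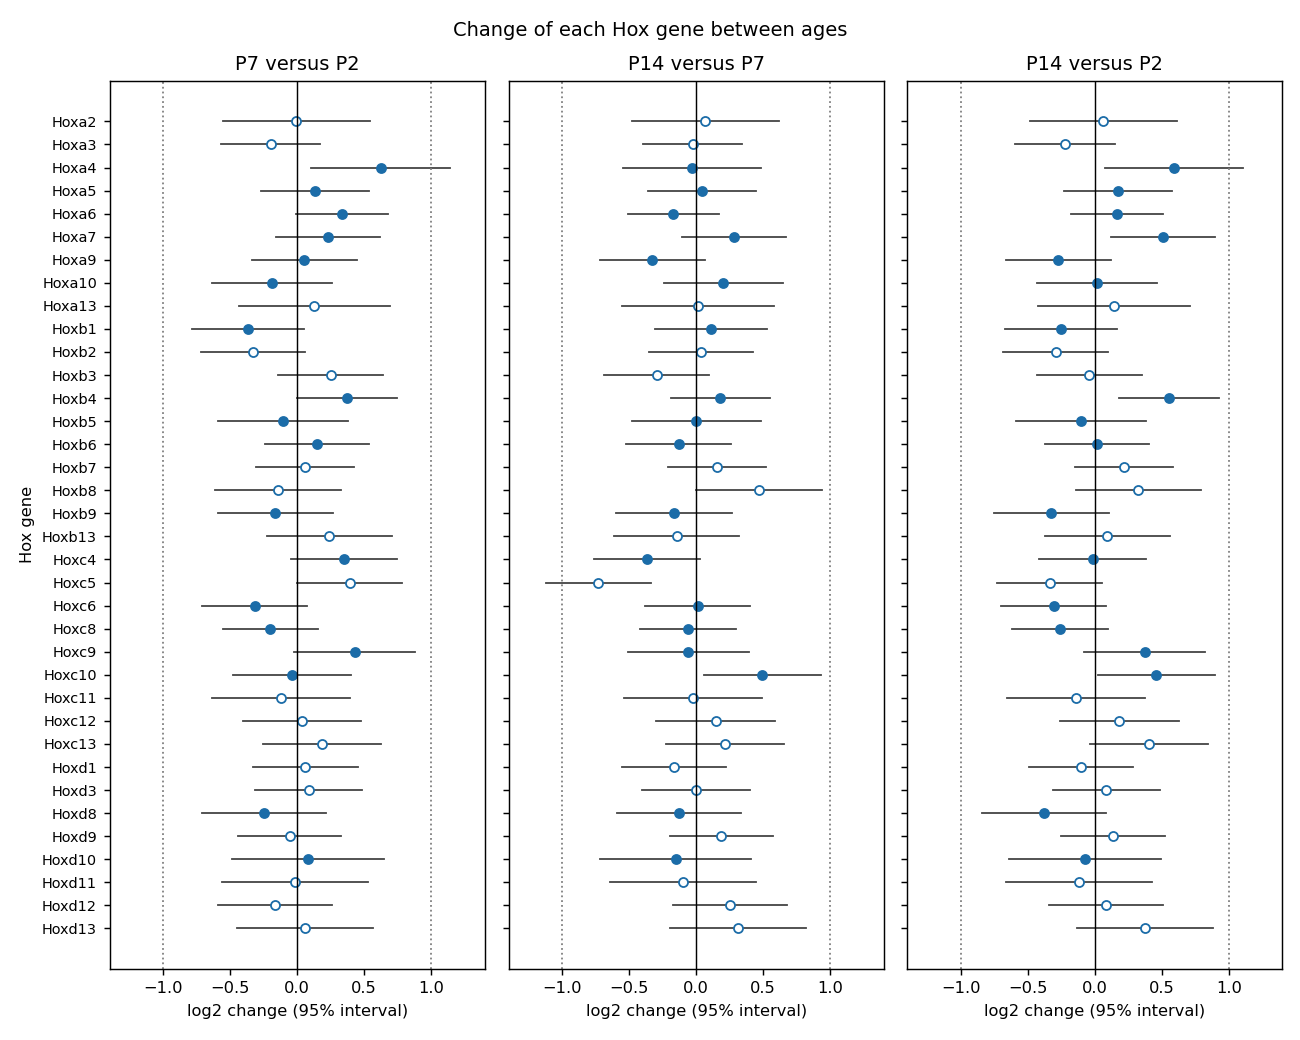
Log2 change of each Hox gene (x axis) in the 3 comparisons of ages, with its 95% interval from limma; filled points are the 18 genes above background and open points the other 18. Dotted lines mark a 2-fold change, which 35 of 36 intervals stay within in each panel.

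The log2 differences lay on both sides of 0. Median log2 changes of the 36 Hox genes were 0.06 from P2 to P7, 0.00 from P7 to P14 and 0.04 from P2 to P14, beside medians of -0.01, 0.02 and 0.01 over all genes. The sign of these Hox medians was not stable: without P2 replicate 3 the median from P2 to P7 was -0.01, and without P14 replicate 1 that from P7 to P14 was -0.04. The log2 changes ranged from -0.36 to 0.62, from -0.73 to 0.50 and from -0.38 to 0.59. From P2 to P14, the Hoxa genes had a median change of 0.14, Hoxb -0.01, Hoxc -0.02 and Hoxd 0.00. By position the medians were -0.11 for anterior, 0.09 for central and 0.09 for posterior genes.

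The 3 arrays of 1 age lay wholly apart from those of the other for 8 Hox genes between P2 and P7 (22.2%, 4 higher and 4 lower at P7), where 15.2% of all genes did so (7.30% higher and 7.90% lower). Between P7 and P14 there were 5 (13.9%, 2 higher and 3 lower at P14), against 23.9% (14.8% higher and 9.13% lower). Between P2 and P14 there were 7 (19.4%, 3 higher and 4 lower at P14), against 28.7% (16.2% higher and 12.6% lower). Among genes above background, the shares in the same order were 33.3%, 16.7% and 33.3% of the 18 Hox genes and 17.7%, 31.8% and 38.6% of all. None of the 8 Hoxd genes separated in any comparison.

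Among members above background, the 6 with the smallest p in the F-test are described in full. Hoxb4, a gene also known from blood stem cells, read 2.77, 3.06 and 2.91 at P2, 3.24, 3.46 and 3.16 at P7, and 3.44, 3.68 and 3.28 at P14. Its P7 and P14 values lay above its P2 values on every array, and P7 and P14 overlapped. Its log2 change from P2 to P14 was 0.55 ± 0.17 (SE, n = 3 arrays an age) with a limma adjusted p of 0.0557. It passed 0.05 in 3 of 18 alternatives: with quantile normalization (0.0487), with only genes above background tested (0.0314) and without P2 replicate 2 (0.0444). Hoxb4 entered the set above background through its P14 mean alone, so the second value is not separate support for a rise to P14. Across the alternatives the limma adjusted p reached 0.230, without P14 replicate 2.

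Hoxa7, a trunk gene beside Hoxa9, read 4.19, 4.39 and 4.56 at P2, 4.90, 4.34 and 4.58 at P7, and 4.90, 4.88 and 4.87 at P14. All 3 P14 values were higher than all 3 P2 values, while P7 overlapped with both. The change from P2 to P14 was 0.51 ± 0.18 (SE, n = 3 an age), with a limma adjusted p of 0.0927.

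Hoxa4, which marks the neck vertebrae in the embryo, read 4.25, 3.51 and 4.53 at P2, 4.49, 4.82 and 4.84 at P7, and 4.97, 4.62 and 4.46 at P14. P2 replicate 2 was the lowest of the 9 arrays, and the ages overlapped in every comparison. From P2 to P7 the log2 change was 0.62 ± 0.24 (SE, n = 3 an age), with a limma adjusted p of 0.299. Without P2 replicate 2 it was 0.33. From P2 to P14 it was 0.59 ± 0.24, with a limma adjusted p of 0.143, and 0.30 without that array. Without P2 replicate 3 that change was 0.81, with a limma adjusted p of 0.0489.

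Hoxc10, a posterior gene known for the hindlimb, read 5.50, 6.05 and 5.85 at P2, 5.91, 5.38 and 6.00 at P7, and 6.36, 6.10 and 6.32 at P14. Its P14 values were above every P2 and P7 value, and P2 and P7 overlapped. The log2 change was 0.50 ± 0.21 from P7 to P14 and 0.46 ± 0.21 from P2 to P14 (SE, n = 3 an age), with limma adjusted p of 0.265 and 0.184.

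Hoxc9, a neighbour of Hoxc10 in the cluster, read 4.66, 5.17 and 5.40 at P2, 5.50, 5.47 and 5.54 at P7, and 5.44, 5.15 and 5.76 at P14. P7 lay above P2 on every array, and P14 overlapped with both. Its change from P2 to P7 was 0.43 ± 0.21 (SE, n = 3 an age), with a limma adjusted p of 0.415. Hoxc4, at the anterior end of that cluster, read 4.58, 4.17 and 4.21 at P2, 4.81, 4.36 and 4.84 at P7, and 4.21, 4.32 and 4.37 at P14. Its ages overlapped in every comparison, with a log2 change of 0.35 ± 0.19 to P7 and -0.37 ± 0.19 from P7 to P14 (limma adjusted p = 0.455 and 0.389).

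Hoxc5, a central gene that was not above background at any age, is given because it had the smallest adjusted p of a Hox gene, and it was chosen after its values were seen. It read 2.61, 2.84 and 3.08 at P2, 3.24, 3.24 and 3.23 at P7, and 2.79, 2.29 and 2.45 at P14. P7 lay above both other ages without overlap. The log2 change from P7 to P14 was -0.73 ± 0.18 (SE, n = 3 an age), with a limma adjusted p of 0.0523. It passed 0.05 in 7 of 17 alternatives, among them array weights (0.0171) and the P2 arrays left out (0.0285). It did not with quantile normalization (0.0894), cyclic loess (0.0753) or the replicate block (0.0821), nor without any single P7 or P14 array (0.0611 to 0.234). The SD of its P7 arrays was 0.008.

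**Figure D3:**
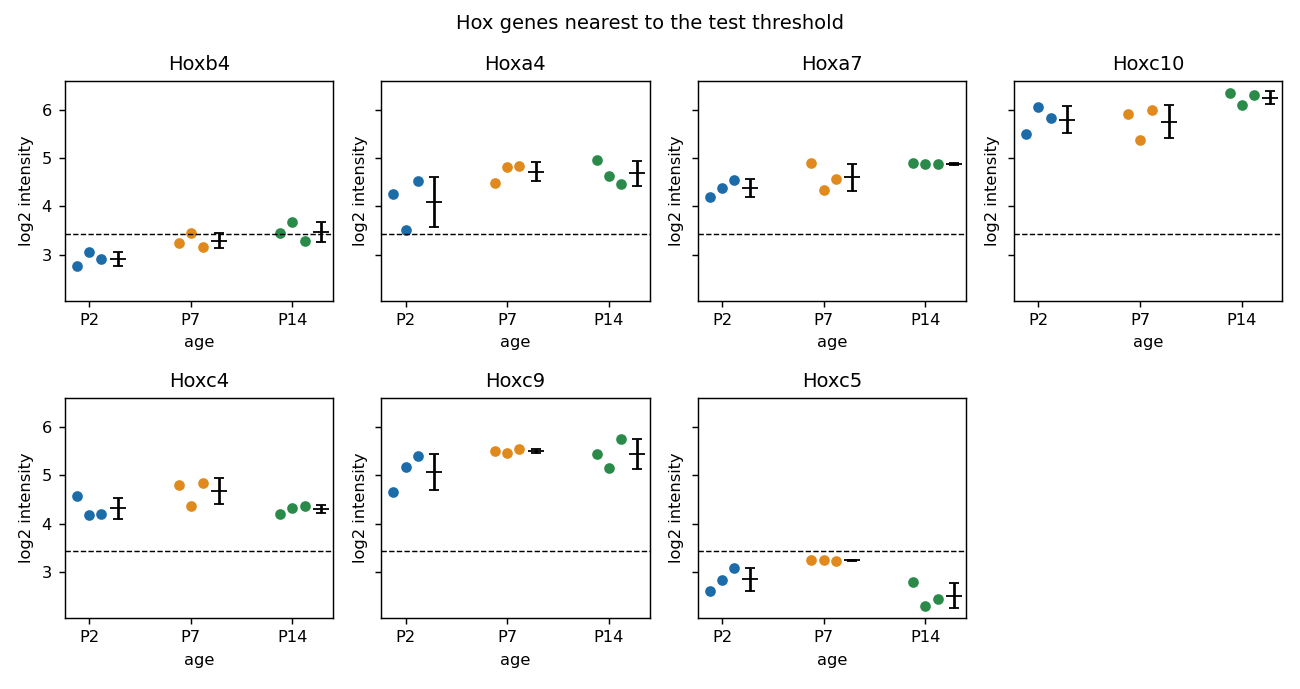
Log2 intensity by age of the 7 Hox genes nearest to the test threshold, with 1 point per array, the mean and the SD beside each age (n = 3), and the 95th percentile of the receptor genes (3.43) as a dashed line. Hoxc10 is highest at P14 on every array, and Hoxc5 stays under the line at all ages.

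Of the other members that separated, Hoxa6 read 4.72 to 4.77 at P7, above the 4.22 to 4.54 of P2 and the 4.50 to 4.62 of P14. Hoxa9 read 3.99 to 4.03 at P14, under the 4.21 to 4.39 of P7. Hoxb2 was lower at P7 than at P2 on every array. Hoxa3 and Hoxb9 were lower at P14 than at P2, and Hoxb7 was higher at P14 than at P7. None passed the limma test.

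The genes that mark the hindlimb were read beside the Hox genes as a check of limb type. Pitx1, the factor that makes a hindlimb, read 3.10, 3.72 and 3.21 at P2, 3.57, 4.09 and 3.61 at P7, and 3.48, 3.51 and 3.53 at P14. Tbx4, its partner in the hindlimb, read 4.30, 4.0 and 4.57 at P2, 4.38, 4.38 and 4.85 at P7, and 4.04, 4.42 and 4.27 at P14. Tbx5, the forelimb counterpart of Tbx4, read 3.12, 3.49 and 3.11 at P2, 2.73, 3.03 and 3.21 at P7, and 3.42, 3.17 and 3.39 at P14. Tbx4 was above background at every age and Tbx5 at none. Pitx1 was above it at P7 and P14 alone, with means of 3.76 and 3.51. Its P2 mean of 3.35 was under background, and the highest age mean of Tbx5 was 3.33, at P14. At P2 the check thus did not tell Pitx1 and Tbx5 apart, since neither passed. For Pitx1 it rests on the choice of threshold. No age comparison of the 3 genes passed the limma test.

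Limb position and patterning factors had the most calls of the 6 lists: of 27 measured (21 above background), 3 rose and 3 fell from P2 to P14, where 6.63% of all genes rose and 4.40% fell. The median change of the list was 0.06, against 0.01 over all genes. Lbx1, which guides muscle precursors into the limb, read 3.19, 3.23 and 3.59 at P2, 3.43, 3.41 and 3.03 at P7, and 4.17, 4.18 and 4.19 at P14. It rose by 0.84 ± 0.18 from P2 to P14 and by 0.89 ± 0.18 from P7 to P14 (SE; limma adjusted p = 0.00715 and 0.0161). The second of these calls ended without P7 replicate 3 (0.0831) or without any single P14 array (0.0708 to 0.0801).

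Tbx15, a factor of fast muscle fibres and limb skeleton, read 6.55, 7.09 and 6.81 at P2, 7.12, 6.98 and 6.99 at P7, and 7.88, 7.56 and 7.60 at P14, a rise of 0.86 ± 0.18 from P2 (limma adjusted p = 0.0066). Gli3, a repressor in the hedgehog pathway that shapes the digits, read 4.72, 4.39 and 5.09 at P2, 4.05, 3.95 and 4.12 at P7, and 3.61, 3.87 and 3.96 at P14. It fell by 0.92 ± 0.19 from P2 to P14 (limma adjusted p = 0.0072). Six4, a homeobox factor of muscle precursors, rose by 0.61 ± 0.18 (limma adjusted p = 0.0449), Shox2, which builds the upper limb bones, fell by 0.75 ± 0.22 (0.0439), and Tbx18 fell by 0.64 ± 0.19 (0.0435). The call of Six4 ended without any single P2 or P14 array or without P7 replicate 2 (0.0554 to 0.148), and that of Shox2 without P2 replicate 1 or 2, P7 replicate 3 or any single P14 array (0.0556 to 0.173). That of Tbx18 ended without P2 replicate 1 or 2 or any single P7 or P14 array (0.0549 to 0.194). With the replicate block Six4 and Shox2 had limma adjusted p of 0.0574 and 0.0539, and with quantile normalization 0.0554 and 0.0532. Six4 was also not called with cyclic loess (0.0680) or arrays centred on the median gene (0.0612), nor Shox2 (0.0593) and Tbx18 (0.0742) with only the 2 ages compared.

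Hox cofactors, the Pbx, Meis and related proteins that bind DNA with Hox proteins, were all above background (12 of 12 measured). From P2 to P14, 0 rose and 1 fell, where 6.63% of all genes rose and 4.40% fell, and the list median was -0.13. The gene that fell was Meis2, at 4.33, 4.27 and 4.34 at P2, 3.93, 4.50 and 4.05 at P7, and 3.37, 3.95 and 3.63 at P14. Its change was -0.67 ± 0.20 (SE; limma adjusted p = 0.0412), and the call ended without any single P2 array (0.0596 to 0.0973), P7 replicate 3 (0.0522), P14 replicate 1 (0.185) or P14 replicate 3 (0.119). It also ended with quantile normalization (0.0545) and with array weights (0.0503).

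Polycomb subunits, which hold silent Hox genes off, numbered 25 measured with 21 above background; 1 rose and 2 fell from P2 to P14, with a list median of -0.02. That count is near the 11.0% of all genes that were called. Pcgf5, a subunit of the PRC1 complexes, read 4.10, 4.57 and 4.16 at P2, 4.29, 4.35 and 4.89 at P7, and 5.54, 5.10 and 5.19 at P14, a rise of 1.0 ± 0.21 (limma adjusted p = 0.00655). Ezh2, the histone H3K27 methyltransferase of dividing cells, read 6.39, 5.45 and 6.11 at P2, 5.72, 5.49 and 5.54 at P7, and 4.53, 5.23 and 5.05 at P14. It fell by 1.05 ± 0.24 (limma adjusted p = 0.0114), a call that ended without P2 replicate 1 (0.0565) or P14 replicate 1 (0.0679). Rbbp4, a histone-binding subunit shared with other complexes, fell by 0.72 ± 0.20 (limma adjusted p = 0.0335), and this call ended without P2 replicate 1 or 3 or P14 replicate 1 or 2 (0.0613 to 0.144). With the mean of its probe sets in place of the brightest, the change of Rbbp4 was -0.27 (limma adjusted p = 0.327), and with only the 2 ages compared its adjusted p was 0.0616.

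Trithorax subunits and H3K27 demethylases, which keep active Hox genes on, were all above background (17 of 17); 0 rose and 1 fell from P2 to P14, where 11.0% of all genes were called, and the list median was -0.10. Psip1, a chromatin reader that tethers the Mll complex, read 6.22, 5.75 and 5.92 at P2, 5.11, 5.44 and 5.74 at P7, and 5.05, 5.15 and 5.14 at P14. It fell by 0.85 ± 0.19 from P2 to P14 (limma adjusted p = 0.0109), a call that ended without P2 replicate 1 (0.0511) or P14 replicate 1 (0.0501). No member of these lists or of the limb list was called by limma between P2 and P7, where 2 cofactors, 3 limb factors, 2 Polycomb and 2 Trithorax genes had an unadjusted p under 0.05 (12.8% of all genes did), and between P7 and P14 Lbx1 was the only one called, where 1.72% of all genes rose and 0.703% fell.

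**Figure D4:**
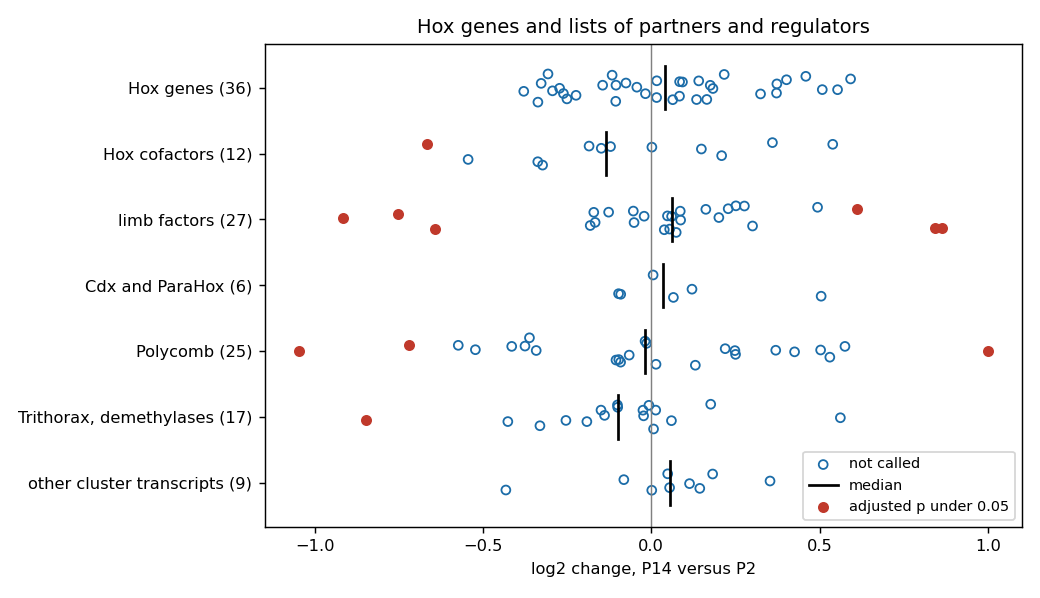
Log2 change from P2 to P14 (x axis) of each Hox gene and of each measured member of 6 lists (number of genes in brackets), with the list median as a bar; filled points passed an adjusted p of 0.05 in limma. None of the 36 Hox genes is filled, and the filled points of the lists include Lbx1, Tbx15 and Pcgf5 on the right and Gli3, Ezh2 and Psip1 on the left.

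Cdx and ParaHox factors, of which the Cdx genes set Hox expression in the embryonic trunk, had 1 of 6 members above background, Cdx2. From P2 to P14 limma called 0 of the 6 (1 at an unadjusted p under 0.05), with a list median of 0.04. Of 9 measured transcripts that lie within the Hox clusters without being Hox genes, Evx1, Hotair and Hoxd3os1 were above background; limma called 0 from P2 to P14 (1 at an unadjusted p under 0.05), with a median of 0.05. Hotair, a long RNA from the Hoxc cluster, read 3.75, 4.42 and 4.0 at P2, 3.92, 4.20 and 3.90 at P7, and 3.93, 4.21 and 4.04 at P14, with overlap between all ages. The microRNA genes Mir10b, Mir196a-1, Mir196a-2 and Mir615 were not above background; such probe sets read the precursor or its host transcript and not the mature microRNA. The mature sequences of 3 of these genes, from the RefSeq tables, are printed with the seed in capitals (bases 2 to 8), because members of both families are known to pair with Hox messages.
miR-10b-5p: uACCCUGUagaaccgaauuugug
miR-196a-5p: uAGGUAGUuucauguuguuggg
The second is made from both Mir196a-1 on chromosome 11 and Mir196a-2 on chromosome 15.

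Among the Hox genes the median SD was 0.253 for P2 arrays and 0.197 for those of P7 and of P14, against 0.251, 0.203 and 0.163 over all genes. The mean of 10 muscle fibre markers lay between 8.21 and 9.50 on the P2 arrays, between 10.2 and 10.4 on those of P7, and between 10.8 and 10.9 on those of P14; 7 of the 10 rose from P2 to P14. That of 13 cartilage and bone markers lay between 4.07 and 5.35, between 3.77 and 4.66 and between 3.65 and 3.68 in the same order, with 2 that fell. Satellite cell markers were above background in 11 of 11 cases, of which 3 fell from P2 to P14, and fibroblast markers in 13 of 13, of which 1 rose and 2 fell, where 6.63% of all genes rose and 4.40% fell. Of other cell types, 4 of 10 pericyte and smooth muscle markers and 2 of 10 endothelial markers rose, while 3 of 8 neutrophil, 3 of 7 adipocyte and 1 of 2 erythroid markers fell. Tendon markers gave 1 of 10 in each direction, 1 of 7 epidermal markers rose, and limma called none of 10 macrophage and 7 Schwann cell markers (2 and 1 at an unadjusted p under 0.05). The part of these cell types in the values of the Hox genes and of the lists was not tested. Markers of spinal cord and motor neurons, tissue that also expresses Hox genes, were above background in 0 of 11 cases, with a list mean of 2.55 to 2.71 over the 9 arrays.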

How the data were processed

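The authors deposited log2 intensities of 41345 probe sets, 1 value per array, for 9 arrays. Per the submitters' processing notes, RMA and Partek were used (versions are not listed); RMA corrects background, normalises between arrays and gives 1 log2 value per probe set, and the base is taken from RMA. Per the labels, RNA came from a Trizol extraction, of which 6 ug went into biotin-labelled cRNA. The array platform and genome build were not stated in the sources used. RMA pulls low values together, so changes of dim genes are understated.

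Probe sets were named by a table of platform annotation: 23521 had 1 symbol, 1814 had several and 16010 were not listed. Of the 1-symbol probe sets, 23328 matched RefSeq (GRCm38.p6) by Entrez number. Each gene was read from its brightest probe set by 9-array mean, which gave 22180 genes, 1082 with more than 1 probe set. limma 3.58.1 in R 4.3.3 fitted 1 mean per age over 9 arrays, with empirical Bayes, two-sided tests and Benjamini-Hochberg adjustment over all genes; an adjusted p under 0.05 was a call. The fit was tested on simulated data. Named genes were all Hox members, with values on every array for called members and for the 6 members above background with the smallest F-test p, the called members of the other lists, and Pitx1, Tbx4 and Tbx5. Outside that rule, values on every array were also given for Hoxb1, Hoxc5, Hoxc6, Hoxd8 and Hotair. In lists without a called gene, members were named by whether they were above background. Members and lists were chosen with earlier results of these data known. The number of arrays limits the precision. Same-numbered replicates of different ages deviated with correlations of -0.03 to 0.06, and differently numbered ones with -0.08 to 0.11. These values do not settle whether the numbers pair the samples, which were fitted as unpaired. Alternatives covered normalization, the background filter, probe set choice, variance model, array weights, the replicate block and leaving out each array.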

Additional observations from a re-analysis of the deposited data

Results flagged for a closer look

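Probe sets that carry the symbols of several genes were used in no comparison, and 4 that name a Hox gene had a brightest age mean above the receptor background of 3.43. That of Hoxb3 and Hoxb2 was at 3.74 and that of Hoxd4 and Hoxd3 at 3.79, while the 1-symbol probe sets of Hoxb2, Hoxb3 and Hoxd3 were not above background. The probe set of Hoxa3 and 5730446D14Rik was at 4.55. It read 4.59, 4.73 and 4.32 at P2, 4.25, 4.22 and 4.22 at P7, and 4.18, 4.08 and 4.16 at P14, so the 3 ages did not overlap, and it was not tested. The probe set of Mira and Hoxa7 was at 4.46 and held the same value, 4.31, on 5 of 9 arrays. Which of the named genes gave these signals was not tested.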

How the results depend on the processing

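The 12 changes of named genes that were called kept their direction under every alternative run. Uncalled values did not: of 108 log2 changes of Hox genes (36 genes in 3 comparisons), 50 lay on both sides of 0 across the settings, such as that of Hoxa2 from P2 to P7 (-0.29 to 0.23), and so did 4 of 42 of the other named genes. Of the comparisons of single Hox genes under the alternatives, 1879 kept their side of the threshold and 11 passed it where the reported test had not. The count of Hox genes called from P2 to P7 and in the contrast of intervals was 0 throughout. From P7 to P14 it was 1 (Hoxc5) with arrays centred on the median gene, with trend and robust variance, with array weights and with only the 2 ages compared, and 0 to 1 with an array left out. From P2 to P14 it was 1 (Hoxb4) with quantile normalization and with only genes above background tested, and 0 to 1 with an array left out (Hoxb4 without P2 replicate 2, Hoxa4 without P2 replicate 3). Over the 3 ages it was 1 (Hoxc5) with array weights and 0 to 1 with an array left out (Hoxc5 without P2 replicate 3).

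Among all genes, 73 were called from P2 to P7, against 111 with cyclic loess, 173 with only genes above background, 159 with trend and robust variance, 12 with only the 2 ages compared and 11 to 206 with an array left out. From P7 to P14 there were 538, against 818 with only genes above background, 1221 with array weights, 1051 with only the 2 ages and 214 to 794 with an array left out. From P2 to P14 there were 2447, and 1373 to 2611 with an array left out. With the replicate block these counts were 61, 458 and 2320, and 0 Hox genes in each. Outside the Hox genes, 51 of the comparisons of named genes lost their call and 10 gained one.

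Of the Hox genes, 8 were above the 99th percentile of the receptor genes, 26 above the 90th, and 17 by the mean of 9 arrays in place of the brightest age. With probe sets of several symbols added where 1 of them is Hox, the count above the 95th percentile was 19. The gene added was Hoxa3, through its probe set shared with 5730446D14Rik. Signal near background limits what can be said of the 18 members under it.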
